A study of Homo sapiens with 12 samples.

Results

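The rows described here are transcripts that the deposited expression table lists under an RNAcentral identifier, which begins with URS. RNAcentral is a public catalogue of noncoding RNA sequences, and the table places its entries beside RefSeq transcripts of the same genes. Of 52823 URS rows, 11796 (22.3%) had a summed read count of at least 100 over the 12 libraries, and these are the URS rows of all statements below unless a larger set is named. They were chosen by that sum alone, over all groups together. The lowest sum inside was 100 and the highest outside was 99.93, with 70 rows from 100 up to 101 and 51 rows from 99 up to 100.

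The libraries are RNA-seq of PC3, an established human prostate cancer cell line that grows without androgen, wild type per the labels. Each of 4 groups has 3 libraries: BLANK received PBS (buffer), AgNPs received silver nanoparticles, DOC received an agent that the labels call only DOC, and COM received AgNPs together with DOC. Doses and times are not given in the labels, and nothing there says that the replicates were separate cultures, so p-values measure the spread between these libraries. Depth differed by group: linear rows (those not listed as circular RNA) held 22573481 to 22769479 counts in BLANK, 13049868 to 13362290 in AgNPs, 18603100 to 19421873 in DOC and 10996446 to 11069928 in COM, so depth and treatment cannot be told apart. Levels are given as CPM, the usual depth-scaled read count, on library sizes corrected for composition by edgeR's TMM, and they are not divided by length. Epithelial keratins KRT8 (150 to 197 CPM) and KRT18 (197 to 248 CPM) and the prostate factor HOXB13 (196 to 381 CPM) were present in all libraries, with lower levels of EPCAM (6.54 to 12.4 CPM) and CDH1 (2.38 to 3.94 CPM). Of the fibroblast markers, COL1A2 (50.3 to 98 CPM) and COL1A1 (14.7 to 23.8 CPM) were present while DCN and LUM stayed at or below 0.0915 CPM. Of the immune markers, PTPRC stayed at or below 0.104 CPM, CD3E had no row and CD68 was at 37.7 to 54.5 CPM. DOC replicate 1 lay farther from the mean of the other libraries of its group than any other library did. Its median distance was 0.15 on the log2(CPM + 1) scale over 1257 URS rows, against 0.09 to 0.11 for the rest.

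Long noncoding RNAs are transcripts without a known protein product. Some build nuclear bodies, some recruit chromatin regulators, and some serve as the primary transcripts from which microRNAs or small nucleolar RNAs are cut. RNAcentral entries can also be transcripts with no open reading frame that come from protein-coding genes, such as forms with a retained intron, so a URS row and a coding RefSeq row can belong to the same gene. The estimation program named for this table, RSEM, divides reads that match several transcripts among them, and the table does not say which bases a row covers.

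The 11796 rows belonged to 7320 genes, of which 2125 held at least 2 of them and the fullest held 28. In 3009 genes, with 4410 of the rows (37.4%), the same gene also had NM_ rows, RefSeq's curated coding transcripts. A further 4284 rows (36.3%) lay in 1889 genes with other RefSeq rows only, and 3102 rows (26.3%) lay in 2422 genes without a RefSeq row. The RefSeq table gave a symbol for 9118 rows. By the names of their genes, 666 rows were LINC transcripts, 1134 antisense, 506 divergent and 222 snoRNA or microRNA host genes. Most rows were low: the median over rows of the mean level was 1.62 CPM, while the 10 most abundant rows held 35.0% of all counts on the 11796. Whole numbers in all 12 libraries, as rows have when no read was divided, were found in 1859 rows (15.8%).

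Start regions of 5 genes with URS rows that rose under AgNPs are shown first. LUCAT1, LOC102723825, LOC107984118 and KILH had some of the largest rises under AgNPs, and LINC-PINT was added with a smaller rise. LINC01484 and ATF3 rose more than LINC-PINT and are not printed. Sequences are from RefSeq (GRCh38.p14), on the strand of the gene, 250 bases before to 50 after the annotated gene start, which need not be the start of the URS row. Capitals mark letters of any of 4 motifs, each searched on both strands: the antioxidant response element core TGACNNNGC, the AP-1 element TGANTCA, the CEBP-ATF response element TGATGNAA and the metal response element core TGCGCNC. A single stretch can hold 2 of them.
LUCAT1, chr5:91314353-91314652, minus strand: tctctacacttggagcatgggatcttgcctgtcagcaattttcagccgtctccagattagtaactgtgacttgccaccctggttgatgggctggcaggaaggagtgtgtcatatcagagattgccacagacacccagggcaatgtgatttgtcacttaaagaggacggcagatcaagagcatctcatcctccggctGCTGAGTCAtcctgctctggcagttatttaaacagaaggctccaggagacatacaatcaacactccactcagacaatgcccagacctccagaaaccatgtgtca
LOC102723825, chr2:240387740-240388039, minus strand: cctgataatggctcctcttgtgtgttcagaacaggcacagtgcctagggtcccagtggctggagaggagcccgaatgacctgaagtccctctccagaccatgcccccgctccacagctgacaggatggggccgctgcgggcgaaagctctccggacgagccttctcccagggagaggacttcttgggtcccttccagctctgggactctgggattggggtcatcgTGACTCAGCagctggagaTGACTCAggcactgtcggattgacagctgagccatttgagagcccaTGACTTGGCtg
LOC107984118, chr5:173714914-173715213, minus strand: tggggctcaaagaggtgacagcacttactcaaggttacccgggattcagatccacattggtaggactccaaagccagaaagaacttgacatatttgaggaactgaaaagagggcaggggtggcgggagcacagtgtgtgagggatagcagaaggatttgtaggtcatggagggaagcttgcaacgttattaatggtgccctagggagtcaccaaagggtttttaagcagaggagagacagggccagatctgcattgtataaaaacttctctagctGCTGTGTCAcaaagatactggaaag
LINC-PINT, chr7:131109876-131110175, minus strand: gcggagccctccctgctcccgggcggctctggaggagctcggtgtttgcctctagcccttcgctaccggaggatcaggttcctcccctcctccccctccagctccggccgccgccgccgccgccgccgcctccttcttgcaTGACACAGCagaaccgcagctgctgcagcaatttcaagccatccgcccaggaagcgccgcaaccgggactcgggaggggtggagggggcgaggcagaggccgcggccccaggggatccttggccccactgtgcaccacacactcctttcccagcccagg
KILH, chr6:53573226-53573525, minus strand: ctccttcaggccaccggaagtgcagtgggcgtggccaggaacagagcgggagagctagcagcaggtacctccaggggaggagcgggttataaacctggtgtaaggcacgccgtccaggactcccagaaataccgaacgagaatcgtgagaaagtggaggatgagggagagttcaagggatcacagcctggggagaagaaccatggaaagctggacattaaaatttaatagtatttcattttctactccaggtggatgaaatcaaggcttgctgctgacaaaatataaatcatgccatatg
The LUCAT1 window holds GCTGAGTCA 54 bases before the start, a stretch that fits both motifs. The LOC102723825 window holds 2 stretches of the antioxidant core and 2 of AP-1, overlapping in TGACTCAGC. The KILH window holds none of the 4 motifs. Of the 4 annotated windows of LINC-PINT, 1 that holds the antioxidant core is printed and 1 holds no motif. Both windows of ATF3, whose URS row also rose, lack the antioxidant and AP-1 letters. In 1 of them the CEBP-ATF letters TGATGGAA lie 191 bases before the start. Among all 27305 genes with such a window, 16.1% held the antioxidant core, 9.37% the AP-1 letters, 4.46% the CEBP-ATF letters and 23% the metal core, against 19.9%, 8.43%, 3.39% and 35.1% of the 3891 genes with URS rows and a window. The antioxidant core was in 14 of 38 genes (36.8%) whose URS rows rose under AgNPs and in 3 of 28 (10.7%) whose rows fell. The AP-1 letters were in 18.4% and 10.7% of these genes, and the CEBP-ATF letters in 10.5% and 3.57%. The metal core stood the other way, in 28.9% of the genes that rose and 46.4% of those that fell. Under COM the antioxidant core was in 59 of 210 genes (28.1%) that rose and 19 of 109 (17.4%) that fell, the AP-1 letters in 12.4% and 7.34%, the CEBP-ATF letters in 6.19% and 0.917% and the metal core in 36.2% and 37.6%. These windows were searched after the values were seen, and a match describes letters, not a bound site.

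URS rows took a larger share of the counts in every treated group than in BLANK. The share of linear counts was 11.8%, 11% and 11.3% in the BLANK libraries, 12.5%, 12.4% and 11.8% in AgNPs, 12.6%, 13.4% and 13.1% in DOC and 14.1%, 14.0% and 13.9% in COM. The 3 libraries of each treated group lay above all 3 BLANK libraries, most narrowly AgNPs replicate 3 over BLANK replicate 1, both at 11.8% when rounded. Group means were 11.35% ± 0.42 (SD, n = 3) for BLANK, 12.23% ± 0.34 for AgNPs, 13.01% ± 0.42 for DOC and 14.02% ± 0.12 for COM, and NM_ rows held 65.9%, 64.9%, 63.6% and 62.6% in the same order. A comparison of 3 against 3 libraries allows no exact permutation p below 0.1, so these shares are given as a description. Without the 10 most abundant rows the means were 7.47%, 7.94%, 8.45% and 8.90%. By class of gene, rows in genes without RefSeq rows went from 5.28% in BLANK to 7.01% in COM and those in genes with other RefSeq rows only from 3.50% to 3.82%. Of the counts of genes that hold NM_ rows, URS rows took 2.91% ± 0.09 in BLANK, 3.17% ± 0.10 in AgNPs, 3.42% ± 0.10 in DOC and 3.71% ± 0.05 in COM.

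**Figure D1:**
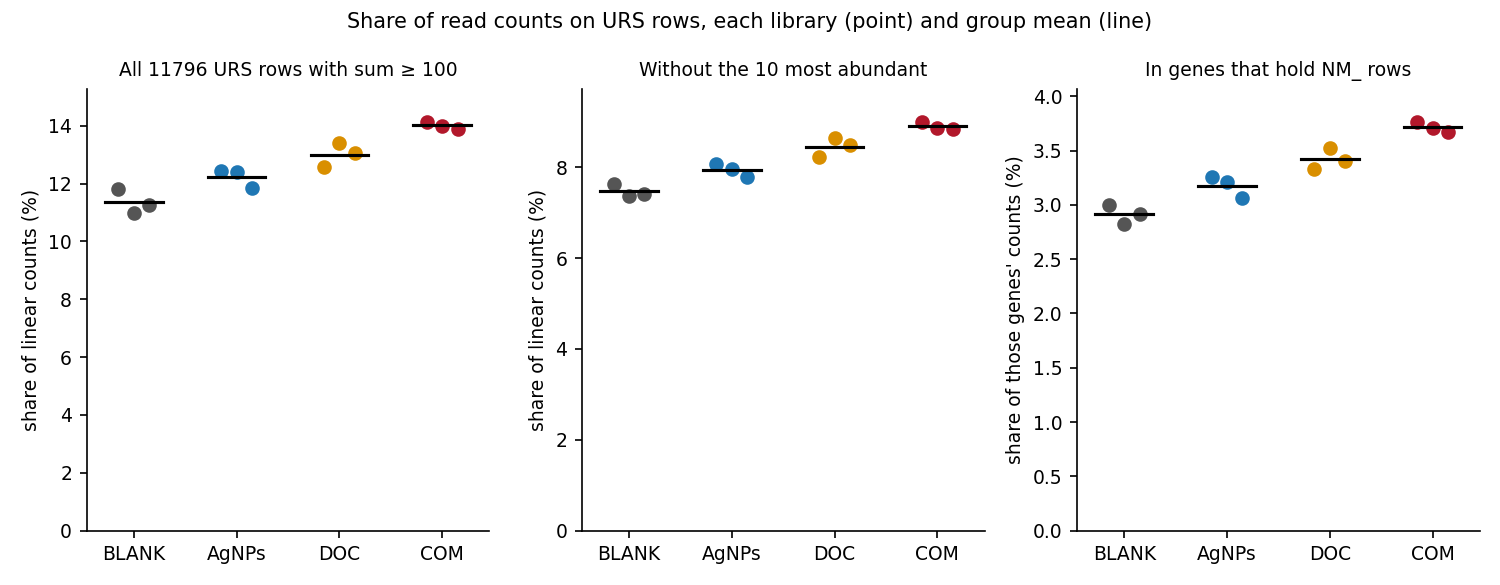
Share of read counts on URS rows (y axis, percent) in each library (points) with the group mean (line), for all 11796 rows, without the 10 most abundant, and for rows in genes with NM_ rows as a share of those genes' counts. COM lies highest in all 3 panels, with means of 14.02%, 8.90% and 3.71% against 11.35%, 7.47% and 2.91% in BLANK.

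Among the most abundant URS rows, a gene without a symbol held 17 of them and 18.1% of all counts on URS rows. In the order BLANK, AgNPs, DOC, COM its rows summed to 20278, 21127, 24161 and 27509 CPM, and the sum rose under COM (log2 fold change 0.47 ± 0.10 SE, adjusted p = 0.0056). URS0000D56E44, also without a symbol, was at 2640, 2230 and 2630 CPM in BLANK, 3820, 4310 and 3590 in AgNPs, 2670, 3240 and 3030 in DOC and 4690, 4160 and 4550 in COM. The AgNPs and COM libraries all lay above BLANK for this row, which rose under AgNPs (0.65 ± 0.10, adjusted p = 0.0077) and COM (0.84 ± 0.10, adjusted p = 0.00063). MALAT1, an abundant nuclear RNA of the speckles, was the symbol with most counts: its 18 rows summed to 4989 CPM in BLANK and 7167 in COM. A URS row assigned to RPE65, a retinal enzyme gene with no RefSeq row in this table, had 4990, 4070 and 4250 CPM in BLANK and 6060, 6390 and 6250 in COM (0.49 ± 0.09, adjusted p = 0.010). That call was lost without BLANK replicate 2 or without BLANK replicate 3, with a highest adjusted p of 0.052.

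Each URS row was tested in a fit over all 67484 linear rows with a sum of at least 100. Under AgNPs 86 URS rows rose and 45 fell, 131 in all or 1.11%, against 2.32% of all rows tested (1.01% higher, 1.32% lower). Under DOC 12 rose and 1 fell, 0.11%, against 0.216% of all rows (0.0696% higher, 0.147% lower). Under COM 484 rose and 192 fell, 5.73%, against 7.59% of all rows (3.04% higher, 4.55% lower). The share of URS rows called in either direction was below the background in each comparison. By direction, 0.729%, 0.102% and 4.1% of URS rows were called higher under AgNPs, DOC and COM, and 0.381%, 0.00848% and 1.63% lower. The share called higher lay above the background under DOC and COM and below it under AgNPs. The directions were split otherwise: NM_ rows were called 439 higher and 736 lower under AgNPs, 19 higher and 89 lower under DOC and 934 higher and 2302 lower under COM. The median log2 change over all URS rows was 0.03 for AgNPs, 0.11 for DOC and 0.12 for COM, against -0.02, 0.00 and -0.02 over all rows and -0.05, -0.06 and -0.11 over NM_ rows. At 2-fold or more, 33 rows rose and 3 fell under AgNPs, and 225 rose and 42 fell under COM. Over all rows, 0.357% rose and 0.083% fell at that size under AgNPs and 1.23% and 0.649% under COM. URS rows that rose 2-fold or more were thus no more frequent than the background under AgNPs and more frequent under COM.

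These counts move with single libraries and with the unit. Without BLANK replicate 1, 2 or 3 the AgNPs count was 85, 81 or 75 and the COM count 439, 381 or 387, and without AgNPs replicate 2 the AgNPs count was 84. The DOC count was 59 without DOC replicate 1 and 0 to 5 without any 1 of the other 11 libraries. When the URS rows of a gene were summed, a setting chosen after the data were seen, 768 of 7320 sums were called for AgNPs (518 higher, 250 lower), 566 for DOC (491 higher, 75 lower) and 1974 for COM (1479 higher, 495 lower). Over all sums of that fit 24.4% were called for AgNPs (11.7% higher, 12.6% lower), 12.5% for DOC (4.86% higher, 7.64% lower) and 42.3% for COM (21.3% higher, 21.0% lower). Without any test, all 3 libraries of COM lay above or below all 3 of BLANK in 31.9% of URS rows (2505 above, 1254 below), against 27.4% of all rows, and AgNPs in 20.3% (1375 above, 1024 below), against 19.5%.

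Rows with a higher level were called more often, and URS and NM_ rows of the same level were called at different rates. Under COM, 0.514% of the 3693 URS rows below a mean of 1 CPM were called, 2.27% of the 4402 from 1 to 3 CPM, 9.08% of the 2444 from 3 to 10 CPM and 26.7% of the 1257 at 10 CPM or more. NM_ rows in the same ranges were called in 0.726%, 1.23%, 4.26% and 31.9% of cases. From 1 to 3 CPM, 88 URS rows rose and 12 fell, while 35 NM_ rows rose and 32 fell. At 10 CPM or more, 217 URS rows rose and 118 fell, while 763 NM_ rows rose and 2155 fell.

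**Figure D2:**
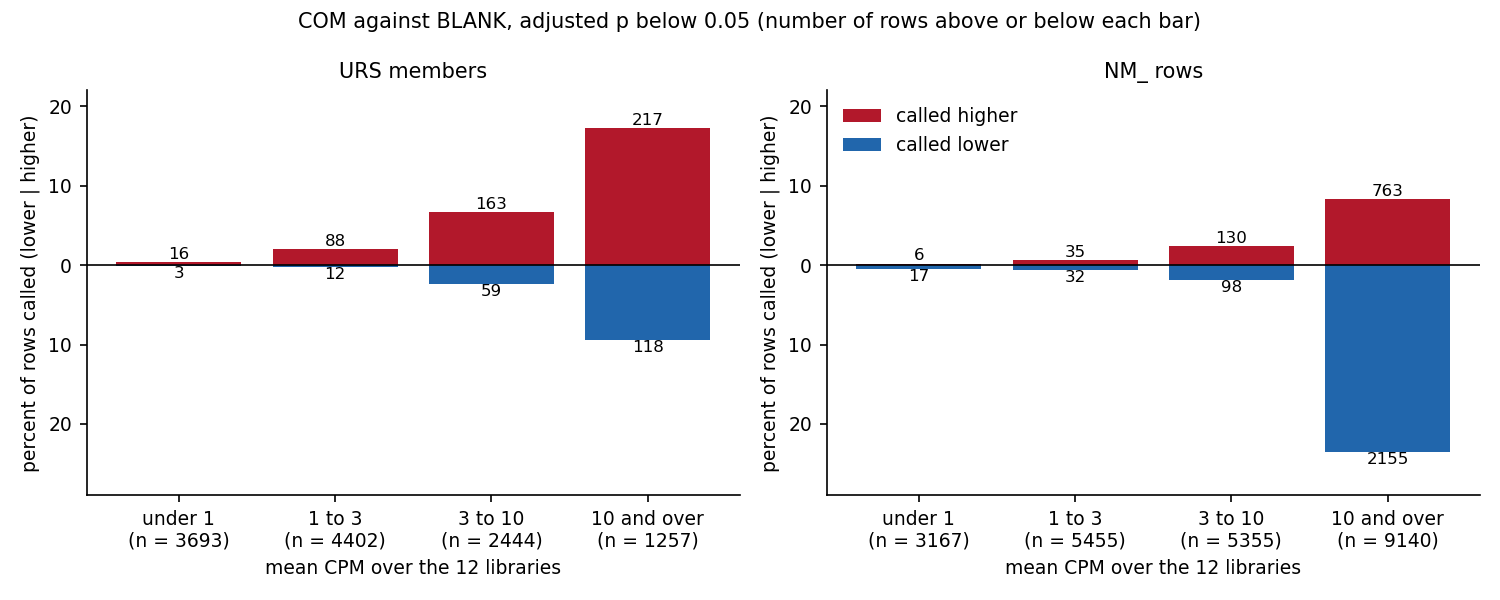
Percent of rows called under COM against BLANK (y axis, higher upward and lower downward, number of rows at each bar) by mean CPM (x axis), for URS rows and NM_ rows. At 10 CPM or more URS rows were called 217 higher and 118 lower, and NM_ rows 763 higher and 2155 lower.

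LUCAT1 and LINC-PINT, long noncoding RNAs known from stress responses, rose under AgNPs and under COM. LUCAT1 is a long noncoding RNA induced by oxidative and xenobiotic stress, and its gene lies at chr5:91302986-91314402. Its row URS00008C0397 was at 0.414, 0.676 and 1.40 CPM in BLANK, 6.58, 6.59 and 6.79 in AgNPs, 1.29, 1.2 and 0.674 in DOC and 8.13, 8.36 and 8.88 in COM. The AgNPs and COM libraries were all above 6 CPM and the BLANK and DOC libraries all below 1.5, so the first pair did not overlap with the second. The log2 fold change was 2.99 ± 0.42 for AgNPs (adjusted p = 0.0051), 0.34 ± 0.40 for DOC (adjusted p = 1) and 3.34 ± 0.43 for COM (adjusted p = 0.0011). Its 7 URS rows together had 2.78, 21.2, 4.28 and 28.4 CPM in BLANK, AgNPs, DOC and COM, and the sum rose under DOC too (0.64 ± 0.14, adjusted p = 0.0047).

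LINC-PINT was first described as a noncoding RNA induced by p53, whereas PC3 is a p53-null line. The LINC-PINT gene lies at chr7:130877562-131109925 and had 21 URS rows. Its row URS00008B3B05 was at 21.3, 22 and 20.9 CPM in BLANK, 66.9, 64.7 and 60.4 in AgNPs, 27.1, 28.5 and 29.1 in DOC and 80.0, 83.4 and 87.0 in COM. The 4 groups did not overlap and stood in the order BLANK, DOC, AgNPs, COM. The change was 1.58 ± 0.05 for AgNPs (adjusted p = 3.5e-07), 0.40 ± 0.05 for DOC (adjusted p = 0.027) and 1.96 ± 0.05 for COM (adjusted p = 4.8e-08), and COM was above AgNPs by 0.38 (adjusted p = 0.0090). The AgNPs and COM calls held without any 1 library, and the DOC call in 5 of those 12 fits (adjusted p 0.018 to 0.12). The gene as a whole moved less: its URS sum was 406 CPM in BLANK, 473 in AgNPs, 388 in DOC and 532 in COM. The row made up 5.09% of the gene's counts in BLANK and 13.1%, 7.04% and 15.3% in AgNPs, DOC and COM, and its change relative to the gene's other rows was 1.37 under AgNPs (adjusted p = 0.0010) and 1.59 under COM (adjusted p = 5.2e-06).

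Other rows with large rises under AgNPs belonged to little-studied noncoding genes. LOC102723825 (chr2:240381240-240387789) had a row, URS0000D5C08B, at 1.24, 1.40 and 1.40 CPM in BLANK, 13.1, 13.3 and 13.8 in AgNPs, 0.861, 1.56 and 0.363 in DOC and 21.1, 22.5 and 19.5 in COM. It rose by 3.31 ± 0.39 under AgNPs (adjusted p = 0.0019) and by 3.96 ± 0.40 under COM (adjusted p = 0.00027), with a DOC value of -0.53 ± 0.38 (adjusted p = 0.97). LOC107984118 (chr5:173708073-173714963) had URS0000D59287 at 0.138, 0.406 and 0.0903 CPM in BLANK, 5.68, 4.67 and 4.55 in AgNPs, 0.484, 0.468 and 0.415 in DOC and 8.31, 6.18 and 7.14 in COM. AgNPs and COM lay apart from BLANK and DOC in both genes, and LOC107984118 rose by 4.50 ± 0.50 (adjusted p = 0.0011) and 5.04 ± 0.51 (adjusted p = 0.00022). LINC01484, whose gene spans the same stretch of chromosome 5 (173707599 to 173746209), rose with it, from 0.276, 0.135 and 0.271 CPM in BLANK to 1.82, 1.84 and 2.16 in AgNPs (3.05 ± 0.40, adjusted p = 0.0031) and 2.80, 2.0 and 2.56 in COM (3.39 ± 0.41, adjusted p = 0.00065). DOC was at 0.215, 0.208 and 0.207 CPM for this row, whose counts are whole in every library. Without a statement on strand, reads of overlapping genes cannot be told apart.

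KILH (chr6:53561289-53573275) had no counts on URS000038C928 in any BLANK or DOC library. The row was at 3.56, 2.61 and 2.54 CPM in AgNPs and 4.34, 2.36 and 2.75 in COM. Taking 3 counts over the BLANK group as the limit that a count of 0 allows, it was at least 63.9-fold higher in AgNPs (adjusted p = 0.0030) and at least 69.3-fold higher in COM (adjusted p = 0.0011). All rows of the gene together went from 0.981 CPM in BLANK to 8.25, 1.21 and 9.62 CPM in AgNPs, DOC and COM. The AgNPs and COM calls of LUCAT1, LOC102723825 (URS0000D5C08B), LOC107984118, LINC01484 and KILH held without any 1 of the 12 libraries.

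**Figure D3:**
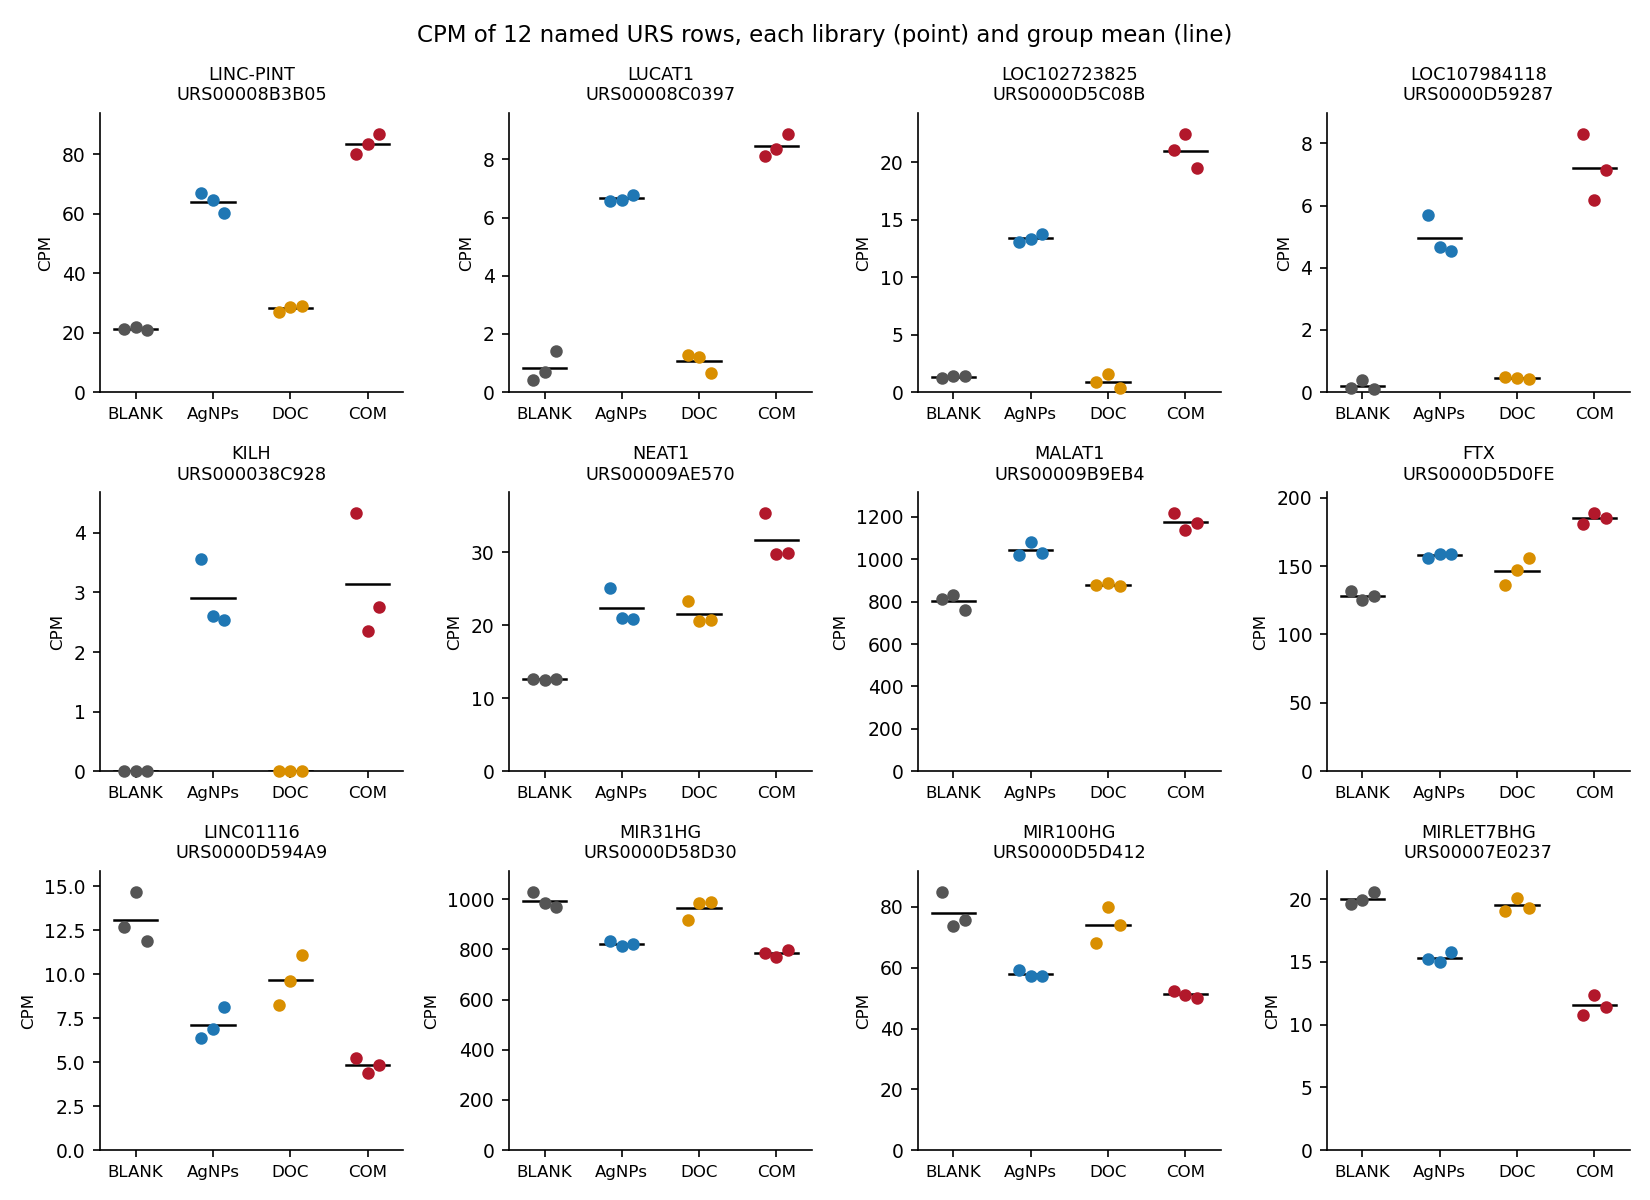
CPM (y axis, linear, from 0) of 12 named URS rows in each library (points) by group, with the group mean (line). LINC-PINT, LUCAT1, LOC102723825, LOC107984118 and KILH are high in AgNPs and COM, while LINC01116 and the microRNA host genes MIR31HG, MIR100HG and MIRLET7BHG are lower in COM than in BLANK.

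Among the 45 rows that fell under AgNPs, the 6 named here by their size of change, of all with a symbol, groups that did not overlap and an average log2 CPM of at least 0, lay between -0.89 and -0.65. LINC01116 (chr2:176611437-176637609) had URS0000D594A9 at 12.7, 14.7 and 11.9 CPM in BLANK, 6.36, 6.90 and 8.17 in AgNPs, 8.23, 9.63 and 11.1 in DOC and 5.24, 4.36 and 4.85 in COM. AgNPs, DOC and COM each lay below BLANK, and the row fell under AgNPs (-0.87 ± 0.16, adjusted p = 0.019, kept in 8 of 12 fits without 1 library with a highest adjusted p of 0.093) and COM (-1.44 ± 0.16, adjusted p = 0.00043). The row URS0000D57F92 of ZNF324, a zinc finger gene, was at 15.7, 14.7 and 16.2 CPM in BLANK, 10.3, 9.19 and 9.25 in AgNPs, 12.3, 13.8 and 12.6 in DOC and 9.31, 9.08 and 8.15 in COM. It fell under AgNPs (-0.70 ± 0.10, adjusted p = 0.0049) and COM (-0.81 ± 0.10, adjusted p = 0.00073), while the summed NM_ rows of ZNF324 rose under COM, from 17.0 to 24.1 CPM (0.53, adjusted p = 0.0053). GTSE1, a mitotic gene, had a row that fell by 0.65 under AgNPs and 0.61 under COM beside falls of 0.67 and 0.79 in its NM_ rows. The GTSE1 row kept its AgNPs call in 3 and its COM call in 8 of 12 fits without 1 library, with highest adjusted p of 0.14 and 0.082. TSC22D1, a leucine zipper gene, had a row at 5.98, 6.54 and 7.99 CPM in BLANK and 3.63, 3.83 and 3.62 in AgNPs (-0.89 ± 0.18, adjusted p = 0.036, kept in 3 of 12 fits with a highest adjusted p of 0.15). Its NM_ sum rose from 14.7 to 28.5 CPM under AgNPs (0.97). ITGA6-AS1, antisense to an integrin gene, had a row at 13.3, 11.7 and 14.0 CPM in BLANK, 6.81, 8.28 and 8.33 in AgNPs, 9.47, 8.48 and 10.9 in DOC and 9.13, 9.27 and 11.3 in COM. All treated libraries lay below BLANK, and the row fell under AgNPs (-0.74 ± 0.15, adjusted p = 0.031, kept in 6 of 12 fits with a highest adjusted p of 0.12). FARSB, the gene of a subunit of phenylalanyl-tRNA synthetase, had a row at 8.37, 8.75 and 8.31 CPM in BLANK, 4.84, 5.44 and 5.86 in AgNPs, 5.38, 6.30 and 6.69 in DOC and 4.97, 5 and 5.03 in COM. It fell under AgNPs (-0.65 ± 0.14, adjusted p = 0.041, kept in 1 of 12 fits with a highest adjusted p of 0.16) and COM (-0.76 ± 0.14, adjusted p = 0.0077).

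Few rows were called under DOC, and most of those calls were lost when 1 library was left out. MRPL21, a mitochondrial ribosomal protein gene, had a URS row at 8.55, 8.29 and 8.17 CPM in BLANK, 7.19, 7.28 and 7.79 in AgNPs, 12.9, 13.6 and 13.1 in DOC and 12.3, 12.8 and 11.3 in COM. DOC and COM lay above BLANK and AgNPs below it, with a DOC change of 0.66 ± 0.09 (adjusted p = 0.030, kept in 2 of 12 fits without 1 library with a highest adjusted p of 0.15) and a COM change of 0.54 ± 0.09 (adjusted p = 0.0052). The gene's NM_ rows fell under COM from 45.9 to 34.4 CPM (-0.39, adjusted p = 0.0088). LINC02603 was the row that fell under DOC: it had 67.4, 64.8 and 58.2 CPM in BLANK, 54.1, 51.3 and 52.9 in AgNPs, 45.9, 46.8 and 45.4 in DOC and 47.3, 50.5 and 50.3 in COM. All treated libraries were below BLANK, and the DOC change of -0.46 ± 0.06 (adjusted p = 0.021) was kept in 8 of 12 fits, with a highest adjusted p of 0.086. COX20, BARX1-DT and CD55 rose under DOC by 0.46, 0.35 and 0.40, with adjusted p of 0.049, 0.040 and 0.049. These calls were kept in 2, 0 and 0 of the 12 fits (highest adjusted p 0.20, 0.17 and 0.20), and all 3 rows rose under COM with adjusted p of 0.0036, 0.0079 and 0.00076.

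NEAT1, the RNA around which paraspeckles form, had 11 URS rows, which moved in different directions. All rows of NEAT1 together, of which URS rows hold 5.09%, summed to 2682, 4580, 3272 and 6596 CPM in BLANK, AgNPs, DOC and COM, and this total rose in all 3 comparisons (0.79, 0.29 and 1.32). URS00009AE570 was at 12.6, 12.5 and 12.6 CPM in BLANK, 25.1, 21.0 and 20.8 in AgNPs, 23.3, 20.6 and 20.7 in DOC and 35.4, 29.8 and 29.9 in COM. Every treated library exceeded BLANK, and the row rose by 0.83 ± 0.10 under AgNPs (adjusted p = 0.0019), 0.78 ± 0.10 under DOC (adjusted p = 0.027, kept in 6 of 12 fits without 1 library with a highest adjusted p of 0.11) and 1.33 ± 0.10 under COM (adjusted p = 3.5e-05). URS0000D59CB3 of the same gene was at 48.5, 58.5 and 53.8 CPM in BLANK, 64.6, 63.1 and 57.4 in AgNPs, 52.3, 14.7 and 13.1 in DOC and 0 in all 3 COM libraries. That row was at least 589-fold lower in COM (adjusted p = 0.00071), by a limit that covers counting error only. Relative to the other NEAT1 rows its adjusted p was 4.8e-12. RSEM divides reads among rows of a gene, and whether reads were assigned to other NEAT1 rows was not tested. The sum of the 11 URS rows was 193, 208, 196 and 202 CPM in the 4 groups, with no call (0.12 ± 0.11, 0.02 ± 0.10 and 0.09 ± 0.11).

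The list drawn up as nuclear-retained RNAs had 97 URS rows in 8 genes, and where each RNA lies in the cell was not measured here. Under AgNPs 7 rose and 0 fell, under DOC 1 rose, and under COM 12 rose and 2 fell, where 2.32%, 0.216% and 7.59% of all rows were called. Their medians were 0.08, 0.11 and 0.21 beside 0.03, 0.11 and 0.12 over all URS rows. MALAT1's row URS00009B9EB4 was at 812, 830 and 763 CPM in BLANK, 1020, 1080 and 1030 in AgNPs, 878, 887 and 876 in DOC and 1220, 1140 and 1170 in COM. Groups stood in the order BLANK, DOC, AgNPs, COM without overlap, with changes of 0.39 ± 0.04 (adjusted p = 0.00047), 0.14 ± 0.04 (adjusted p = 0.25) and 0.56 ± 0.04 (adjusted p = 1.6e-05) for AgNPs, DOC and COM. FTX, a noncoding gene of the X inactivation centre, had URS0000D5D0FE at 132, 125 and 128 CPM in BLANK, 156, 159 and 159 in AgNPs, 136, 147 and 156 in DOC and 181, 189 and 185 in COM. It rose by 0.30 ± 0.04 under AgNPs (adjusted p = 0.0064) and 0.53 ± 0.05 under COM (adjusted p = 7.4e-05). The sum over its 16 rows rose under DOC too (0.20 ± 0.03, adjusted p = 0.00019). JPX, its neighbour, went the other way as a sum, with 256 CPM in BLANK, 229 in AgNPs, 259 in DOC and 233 in COM (-0.14 ± 0.04 for AgNPs and -0.11 ± 0.04 for COM, adjusted p = 0.0056 and 0.020). OIP5-AS1 fell under COM as a sum (18.1 to 11.8 CPM, -0.59 ± 0.13, adjusted p = 0.0021), and TUG1 rose (0.28 ± 0.06, adjusted p = 0.0029).

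Host genes of small nucleolar RNAs, whose introns carry the guides of ribosomal RNA modification, held more genes that fell than rose under AgNPs and COM. Of 135 URS rows in 23 genes, 1 fell under AgNPs, 0 were called under DOC, and 1 rose and 6 fell under COM. Over all rows 2.32%, 0.216% and 7.59% were called. The medians of these 135 rows were -0.12, -0.01 and -0.22. As gene sums, 1 rose and 7 fell under AgNPs, 2 rose and 2 fell under DOC, and 3 rose and 12 fell under COM. Over all sums 11.7% rose and 12.6% fell under AgNPs, 4.86% and 7.64% under DOC, and 21.3% and 21.0% under COM. SNHG16 had sums of 91.1, 70.4, 82.3 and 66.0 CPM in BLANK, AgNPs, DOC and COM, with changes of -0.35, -0.14 and -0.44. DANCR went from 18.8 to 15.5, 19.8 and 13.4 CPM (-0.26, 0.08 and -0.46), of which the AgNPs and COM changes were called. SNHG1, SNHG15 and SNHG19 fell under AgNPs and COM, by 0.19 and 0.28, 0.34 and 0.35, and 0.35 and 0.35. SNHG11 went against the list, with rises of 0.40, 0.52 and 0.62. ZFAS1 rose under COM by 0.16 as a sum and by 0.86 in its row URS00002172FF (adjusted p = 0.0053).

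Host genes of microRNAs, long transcripts from which hairpins are cut, had 81 URS rows in 15 genes. Under AgNPs 3 rows fell and 0 rose, under DOC 0 were called, and under COM 5 fell and 1 rose, where 2.32%, 0.216% and 7.59% of all rows were called. As gene sums, 2 rose and 5 fell under AgNPs, 4 rose and 1 fell under DOC, and 3 rose and 6 fell under COM, where 24.4%, 12.5% and 42.3% of all sums were called. Selected mature microRNAs of the 5 hosts with a row that fell are shown, and others of these hosts are left out. Their seed, bases 2 to 8, is in capitals, since the seed decides which messages a microRNA pairs with. Mature microRNAs were not measured here.
hsa-miR-31-5p (MIR31HG): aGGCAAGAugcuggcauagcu
hsa-let-7b-5p (MIRLET7BHG): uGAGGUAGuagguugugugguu
hsa-let-7a-5p (MIR100HG): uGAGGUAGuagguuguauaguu
hsa-miR-100-5p (MIR100HG): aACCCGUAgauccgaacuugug
hsa-miR-125b-5p (MIR100HG): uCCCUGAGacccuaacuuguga
hsa-miR-17-5p (MIR17HG): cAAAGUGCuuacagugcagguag
hsa-miR-181a-5p (MIR181A2HG): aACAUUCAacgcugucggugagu
hsa-miR-181b-5p (MIR181A2HG): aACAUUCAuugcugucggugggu
MIRLET7BHG and MIR100HG thus both carry a microRNA with the seed GAGGUAG, and both microRNAs shown for MIR181A2HG share the seed ACAUUCA.

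MIR31HG had the most counts of these hosts. Its row URS0000D58D30 was at 1030, 985 and 969 CPM in BLANK, 835, 813 and 821 in AgNPs, 918, 985 and 988 in DOC and 787, 771 and 797 in COM. AgNPs and COM lay below BLANK without overlap and DOC did not, with changes of -0.27 ± 0.03 (adjusted p = 0.0020), -0.05 ± 0.03 (adjusted p = 0.955) and -0.34 ± 0.03 (adjusted p = 0.00017). MIRLET7BHG's row URS00007E0237 was at 19.6, 19.9 and 20.6 CPM in BLANK, 15.2, 15 and 15.8 in AgNPs, 19.1, 20.1 and 19.3 in DOC and 10.8, 12.4 and 11.4 in COM. It fell under AgNPs (-0.39 ± 0.07, adjusted p = 0.021, kept in 6 of 12 fits without 1 library with a highest adjusted p of 0.0997) and further under COM (-0.80 ± 0.07, adjusted p = 0.00011), with DOC overlapping BLANK. MIR100HG's row URS0000D5D412 had 85.0, 73.7 and 75.6 CPM in BLANK, 59.4, 57.4 and 57.2 in AgNPs, 68.2, 79.9 and 74.0 in DOC and 52.3, 51.1 and 50.2 in COM. It fell by 0.43 ± 0.07 under AgNPs (adjusted p = 0.0080) and by 0.61 ± 0.07 under COM (adjusted p = 0.00038). MIR181A2HG fell in all 3 comparisons as a sum, from 6.48 CPM to 4.09, 4.49 and 3.01 (-0.64, -0.52 and -1.07). MIR193BHG rose in all 3, from 15.3 CPM to 19, 18.9 and 23 (0.33, 0.31 and 0.61), and MIR210HG, host of a microRNA induced by low oxygen, rose under COM from 1.26 to 2.78 CPM (1.17 ± 0.24, adjusted p = 0.00032).

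**Figure D4:**
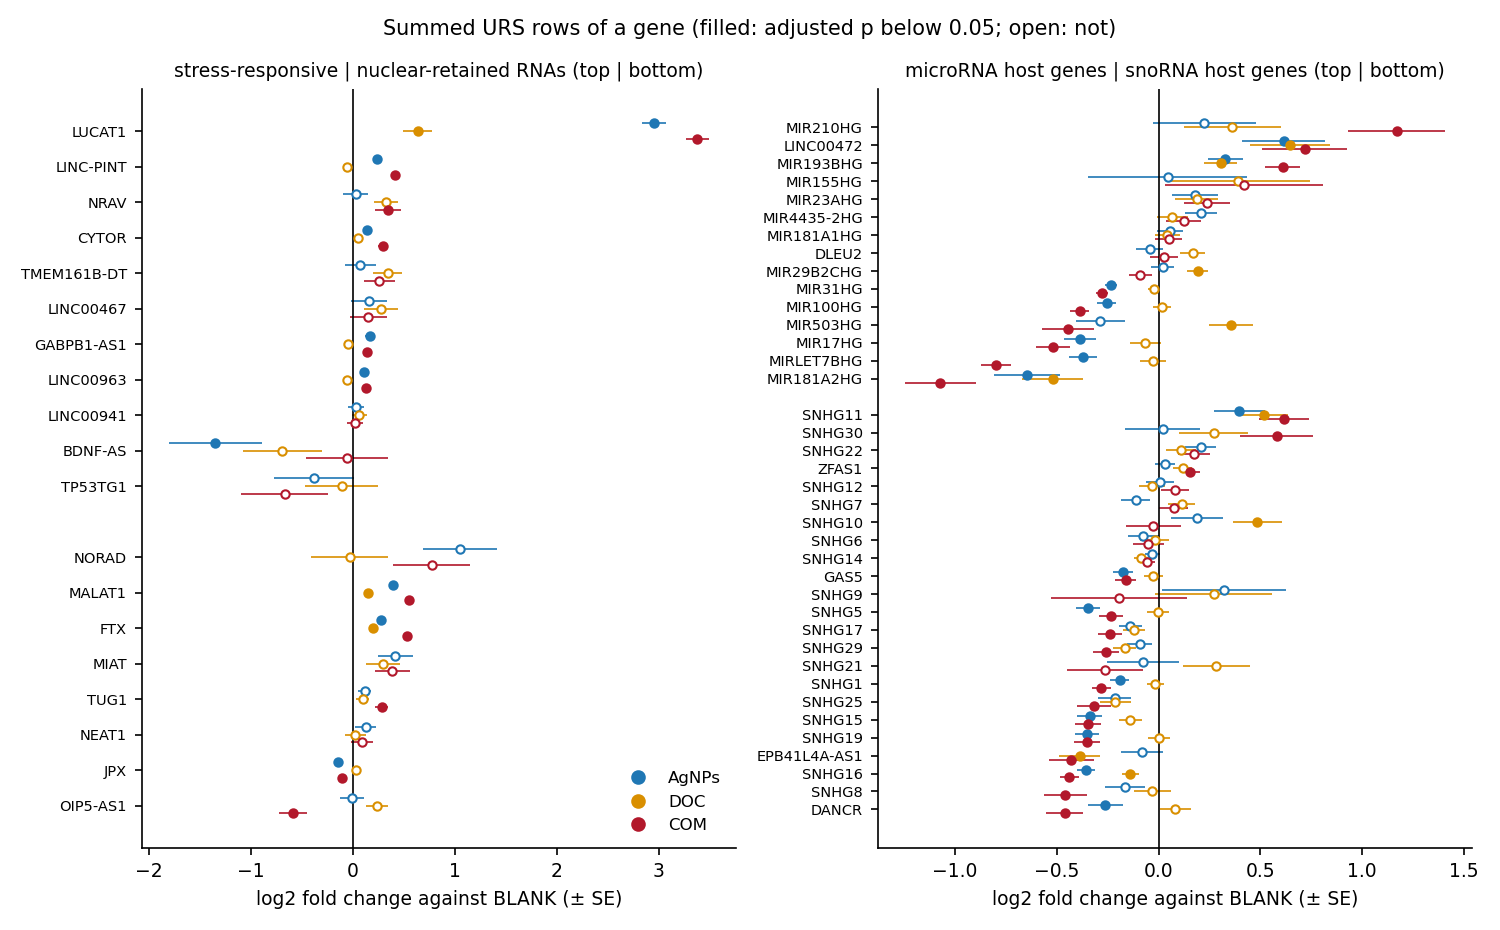
Log2 fold change against BLANK (x axis, ± SE) of the summed URS rows of each gene (y axis) in 4 lists, for AgNPs (blue), DOC (orange) and COM (red), filled where the adjusted p is below 0.05. LUCAT1 stands highest with 2.95 under AgNPs and 3.38 under COM, and 12 of 23 snoRNA host genes are filled below 0 under COM.

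The list of stress-responsive long noncoding RNAs held 106 URS rows in 11 genes. Under AgNPs 7 rose and 0 fell, under DOC 1 rose and 0 fell, and under COM 11 rose and 1 fell, with medians of 0.14, 0.07 and 0.26 and 2.32%, 0.216% and 7.59% of all rows called. As sums 5 rose and 1 fell under AgNPs, 1 rose under DOC, and 6 rose and 0 fell under COM, beside 24.4%, 12.5% and 42.3% of all sums called. Besides LUCAT1 and LINC-PINT, CYTOR (62.0 CPM in BLANK, 67.6 in AgNPs, 63.6 in DOC and 74.6 in COM), LINC00963 and GABPB1-AS1 rose under AgNPs and COM, by 0.29 or less. BDNF-AS, below 1 CPM in every group, fell under AgNPs (-1.35 ± 0.46, adjusted p = 0.033). Long noncoding RNAs tied to prostate cancer had 41 URS rows in 11 genes, NEAT1 among them, with 1 higher under AgNPs, 1 higher under DOC, and 2 higher and 5 lower under COM. The balance differed for gene sums, of which 1 was higher and 3 lower under AgNPs, 1 higher under DOC, and 4 higher and 2 lower under COM. The shares over all rows and sums are those given for the stress list. SCHLAP1, an RNA linked to aggressive prostate tumours, fell as a sum from 68.8 to 58.5 CPM under AgNPs and 55.9 under COM (-0.22 and -0.27), with 67.0 CPM in DOC. HOXA11-AS fell from 41.8 to 33.5 and 27.0 CPM (-0.30 and -0.61), and CBR3-AS1 rose from 3.65 CPM to 5.21, 5.22 and 7.87 under AgNPs, DOC and COM (0.53, 0.52 and 1.13). Of 29 structured small RNAs on a further list, such as RMRP and RPPH1, the RNA parts of RNase MRP and RNase P, none had a row in the table.

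URS rows in genes with NM_ rows were compared with the coding rows of the same gene, each summed, in 2740 genes where both sums were tested. The median change of URS sums was 0.05, 0.12 and 0.13 under AgNPs, DOC and COM, and that of NM_ sums was -0.04, -0.07 and -0.11. The median difference between them within a gene was 0.09, 0.19 and 0.23. Under AgNPs both sums were called the same way in 64 genes and opposite ways in 5, under DOC in 1 and 3, and under COM in 191 and 63, of which 61 had the URS sum higher and the NM_ sum lower. Over all sums of that fit 10.5% were called under AgNPs (5.25% higher, 5.29% lower), 2.43% under DOC (1.06% higher, 1.37% lower) and 27.2% under COM (13.4% higher, 13.8% lower). A test of each URS row against the other rows of its gene called 1 of 4258 rows under AgNPs, 9 under DOC and 16 under COM, against 0.0923%, 0.135% and 0.402% of all rows tested that way. With URS rows of a gene summed, the counts were 4, 12 and 50 of 2875 (43 higher and 7 lower under COM), against 0.144%, 0.181% and 1.15% of all sums.

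URS rows of ATF3 and GDF15 rose under COM beside coding rows that rose, and a row of HMGA2 fell beside coding rows that fell. These are single genes named by their size of change. ATF3, a transcription factor induced by many stresses, had URS00009ADCF7 at 0.184, 0.541 and 0.0903 CPM in BLANK, 1.97, 2.91 and 1.62 in AgNPs, 0.753, 0.624 and 1.19 in DOC and 4.43, 6.27 and 5.31 in COM. All treated libraries lay above BLANK, with a COM change of 4.26 ± 0.64 (adjusted p = 0.0026), and the AgNPs call (2.96 ± 0.61, adjusted p = 0.036) was kept in 1 of 12 fits without 1 library, with a highest adjusted p of 0.15. The summed NM_ rows of ATF3 were at 4.09, 34.2, 8.59 and 67.8 CPM in BLANK, AgNPs, DOC and COM. GDF15, a secreted stress hormone, had a URS row without counts in BLANK that reached 4.43, 6.36 and 2.93 CPM in COM, at least 101-fold higher (adjusted p = 0.035, kept in 3 of 12 fits with a highest adjusted p of 0.091). Its NM_ row went from 9.63 to 398 CPM. HMGA2, a gene for an architectural chromatin protein, had the whole-count row URS00008B9CA8 at 38.7, 41.1 and 38.8 CPM in BLANK, 29.5, 26.8 and 28.6 in AgNPs, 36.5, 33.6 and 35.9 in DOC and 20.6, 15.5 and 15.9 in COM. The HMGA2 row fell under COM (-1.19 ± 0.10, adjusted p = 8.1e-05) and lay below AgNPs there (-0.71 ± 0.10, adjusted p = 0.013), and the NM_ sum fell from 200 ± 3.3 CPM (SD, n = 3) to 124 ± 4.7 (-0.66).

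Other URS rows changed more than the coding rows of their gene. A difference from the gene's other rows was called for RHEB, RAB8A and ERGIC1 and not for CLCN7. For AURKB, named by COM against AgNPs, that difference was not tested. CLCN7, a lysosomal chloride exchanger gene, had the whole-count row URS00008BF6D5 at 7.68, 7.89 and 7.27 CPM in BLANK, 13.4, 11.8 and 10.9 in AgNPs, 9.31, 13.3 and 11.9 in DOC and 23.7, 21.8 and 20.2 in COM. COM lay above all other groups, with a change of 1.52 ± 0.14 from BLANK (adjusted p = 0.00013) and 0.86 ± 0.14 from AgNPs (adjusted p = 0.020, kept in 8 of 12 fits without 1 library with a highest adjusted p of 0.079). The NM_ sum of CLCN7 was 63.9 CPM in BLANK and 65.3 in COM (0.06, adjusted p = 0.575). Relative to the gene's other rows the CLCN7 change under COM had an adjusted p of 0.35 and was not called. AURKB, a mitotic kinase gene, had a URS row at 5.45, 4.60 and 5.17 CPM in AgNPs and 11.7, 12 and 10.7 in COM (1.18 ± 0.20, adjusted p = 0.027, kept in 6 of 12 fits with a highest adjusted p of 0.10), where its NM_ sum was 32.4 and 29.6 CPM. RHEB, the activator of mTORC1, had a row at 0 in BLANK after rounding, 0, 0.383 and 0 CPM in AgNPs, 3.23, 0.364 and 2.33 in DOC and 5.78, 2.45 and 2.75 in COM. Its NM_ sum stayed between 66.0 and 69.0 CPM, and the row's change relative to the gene was called under DOC (adjusted p = 0.022) and COM (adjusted p = 0.0027). Rows of RAB8A and ERGIC1 were also at 0 in BLANK, at 5.33, 8.81 and 6.04 CPM and at 2.17, 4.0 and 4.48 CPM in COM, and relative to their genes they were called under COM (adjusted p = 0.0074 and 0.0012). The rows of RHEB, RAB8A and ERGIC1 held 4.75%, 4.20% and 1.99% of their gene's counts in COM. DOC replicate 1 had no counts on the rows of RAB8A and ERGIC1.

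In a few protein-coding genes the URS row held nearly all counts. The genes with NM_ rows and the largest URS levels were PCBD2, ANKRD28, PARP2 and ARHGEF39, and rows differ in length, so CPM of a URS row and of NM_ rows are not comparable as amounts of RNA. PCBD2 (chr5:134905131-134962644), a metabolic enzyme gene, had URS00008C2A3E at 4700, 3460 and 3590 CPM in BLANK, 5010, 4680 and 4350 in AgNPs, 4330, 5370 and 5240 in DOC and 6590, 6940 and 6750 in COM. COM lay above all other libraries (0.79 ± 0.12, adjusted p = 0.0032), while AgNPs and DOC overlapped BLANK and its NM_ row was at 6.28, 5.91, 6.98 and 5.43 CPM. The PCBD2 gene spans 6 pseudogenes of mitochondrial genes in the RefSeq annotation, and 0 of 37 mitochondrial genes have a row of their own in the table. ARHGEF39 (chr9:35659343-35665195), a guanine nucleotide exchange factor gene, had the whole-count row URS0000051A30 at 270, 327 and 361 CPM in BLANK, 547, 617 and 521 in AgNPs, 432, 408 and 376 in DOC and 615, 552 and 566 in COM. All treated libraries were above BLANK, with changes of 0.82 ± 0.11 (adjusted p = 0.0034), 0.34 ± 0.11 (adjusted p = 0.37) and 0.85 ± 0.11 (adjusted p = 0.00096). Its NM_ row was at 1.98, 2.01, 1.85 and 0.996 CPM in BLANK, AgNPs, DOC and COM, and the gene lies 1323 bases from RMRP, which has no row.

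PARP2, a DNA repair enzyme gene 223 bases from RPPH1, had URS000061A549 at 1020, 1050 and 1130 CPM in BLANK and 1240, 1510 and 1330 in AgNPs. The row was not called (0.35 ± 0.09, adjusted p = 0.086), and as a gene sum it was (0.37 ± 0.09, adjusted p = 0.020). ANKRD28, whose gene spans the pseudogene RN7SL4P, ranged from 734 to 1180 CPM within BLANK and from 1150 to 2030 within DOC, with no call. Rows of RPL15 and PLCH1 lay between 243 and 298 CPM in all 12 libraries, and their COM changes were 0.01 ± 0.06 and 0.08 ± 0.05 with no call. Which bases the rows of these genes cover was not tested.

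**Figure D5:**
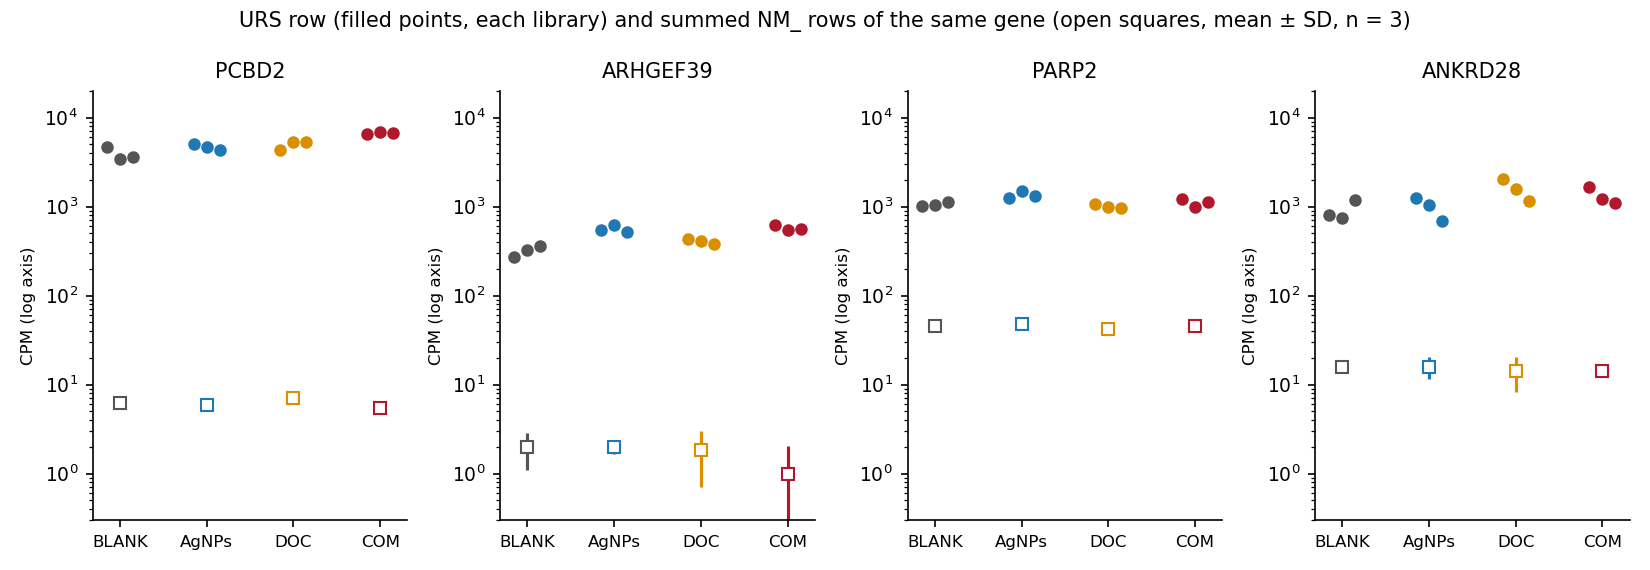
CPM (y axis, log scale) of the URS row (filled points, each library) and the summed NM_ rows (open squares, mean ± SD, n = 3) of PCBD2, ARHGEF39, PARP2 and ANKRD28 by group. The URS rows lie between 270 and 6940 CPM and the NM_ sums below 50 CPM; for ARHGEF39 in COM (0.996 ± 1.0) the lower bar leaves the log axis.

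For URS rows named as antisense or divergent to another gene, 1495 rows of 616 genes had a partner with tested rows. Under COM 69 of these rows were called, a lower share than the 7.59% of all rows. Of the 69, 38 had a partner called the same way and 9 the opposite way, where partners were called for 65.9% of rows. TACR1-AS1, antisense to the neurokinin receptor gene TACR1, had URS0000D5BEDD at 0.138, 0 and 0.361 CPM in BLANK, 3.25, 6.36 and 5.86 in AgNPs, 0 in all DOC libraries and 7.77, 8.18 and 7.5 in COM. AgNPs and COM lay apart from BLANK and DOC, with a COM change of 5.49 ± 1.0 (adjusted p = 0.016, lost without BLANK replicate 1 at 0.073), and its partner TACR1 rose by 2.39 ± 0.29. Since strand is not stated, counts of the pair cannot be told apart.

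Comparing COM with each single agent, 52 URS rows were higher and 21 lower than in AgNPs, against 1.29% of all rows called (0.443% higher, 0.849% lower), and 175 were higher and 101 lower than in DOC, against 4.18% (1.86% higher, 2.32% lower). As gene sums, 492 were higher and 130 lower than in AgNPs (16.7% of all sums called, 7.35% higher and 9.37% lower), and 634 were higher and 383 lower than in DOC (29.8%, 14.9% higher and 15.0% lower). Without DOC replicate 1 the first count rose from 73 to 115, and without AgNPs replicate 2 or 3 it fell to 28 or 25. It was 44 without BLANK replicate 2, 45 without AgNPs replicate 1, and 43 and 45 without COM replicates 1 and 2. The count against DOC fell from 276 to 164 and 179 without DOC replicate 2 or 3. The row of LINC00673 was higher in COM (11.7, 15.1 and 13.3 CPM) than in AgNPs (7.11, 7.66 and 9.25), by 0.74 ± 0.14 (adjusted p = 0.037, kept in 3 of 12 fits without 1 library with a highest adjusted p of 0.12).

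Whether the combined change differed from the sum of both single changes on the log2 scale was tested as an interaction. No URS row was called by the edgeR quasi-likelihood test, against 0.0326% of all rows; 297 URS rows (2.52%) had an unadjusted p below 0.05, against 4.83% of all rows, DESeq2 called 41 and limma 0. As gene sums, 23 of 7320 were called (16 higher, 7 lower), against 0.568% of all sums (0.401% higher, 0.167% lower). LINC-PINT was among them, with an interaction of 0.24 ± 0.04 (adjusted p = 0.0028): its sum changed by 0.24 under AgNPs, -0.06 under DOC (adjusted p = 0.18) and 0.42 under COM.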

How the data were processed

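RNA-seq of PC3 cells was analysed in 12 libraries, 3 in each of 4 groups; total RNA was extracted with TRIzol, per the labels. The authors deposited 1 table with an expected count and an FPKM value per row and library, and the submitters' processing notes name HISAT2, Bowtie2 2.2.5, RSEM and build GRCh38 without saying how each was used. Strand, annotation version and read filters are not given in the sources used here. Another 10 columns, which hold averages by group, were left out.

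Expected counts were rounded, and every linear row with a sum of at least 100 (67484 of 177700) was fitted over all 12 libraries with edgeR 4.0.16 in R 4.3.3 (TMM, robust quasi-likelihood test, Benjamini-Hochberg adjustment over all rows, threshold 0.05). Every adjusted p in the report is from an edgeR fit of this kind. Fits of summed rows and fits without 1 library were adjusted over their own features. The test within a gene, edgeR's diffSpliceDGE, was run on these fits and adjusted over all features tested that way. The common biological coefficient of variation was 0.766. Values after ± are SE for log2 changes and SD for levels. Each SE was derived as the size of the log2 change divided by the square root of the test's F statistic. CPM values are rounded counts over the TMM-scaled library size, and shares of counts are unscaled. Summed rows, whole-count rows (tolerance 1e-09) and shares without single rows were added after the data were seen. DESeq2 1.42.0 and limma 3.58.1 on log2(FPKM + 1) were alternatives. The fit was tested on simulated data.

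Rows were named by level, by size of change among called rows with a symbol and no overlap between groups, by list (4 genes each), and by the test within a gene. The rows and lists were chosen with earlier results of these data known. Symbols and sequences came from RefSeq (GRCh38.p14), matched by gene ID. Rows without counts were given a limit of 3 counts, which covers counting error only. URS sequences were not used here.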

Additional observations from a re-analysis of the deposited data

How the results depend on the processing

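No called change of a named row reversed its direction under the alternatives run, but the counts of called URS rows moved widely under some of them. Main counts were 131 (AgNPs), 13 (DOC), 676 (COM), 73 (COM against AgNPs), 276 (COM against DOC) and 0 (interaction). In that order DESeq2 gave 455, 299, 1479, 392, 702 and 41, and summed rows gave 768, 566, 1974, 622, 1017 and 23. Without a filter on low counts the first 5 were 78, 4, 364, 38 and 154, and with only the libraries of both groups 42, 0, 341, 18 and 85. limma gave 117 for COM against AgNPs. A separate fit of the 4806 whole-count rows, 1859 of them URS rows, gave 112 for DOC, 449 for COM and 4 for the interaction, where 11.1%, 33.0% and 0.791% of all its rows were called. Without 1 library the counts ran from 75 to 129 (AgNPs), 0 to 59 (DOC), 381 to 685 (COM), 25 to 115 (COM against AgNPs), 164 to 246 (COM against DOC) and 0 to 2 (interaction). The cause of these shifts was not tested. Other normalization, filterByExpr, a sum of at least 200, a mean of at least 1 CPM and thinning to the shallowest library kept each count within 1.5 times of the main one.

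Same-numbered libraries did not deviate together (r from -0.05 to 0.05 over 18 pairs), and the main fit did not pair them. This check cannot show that same-numbered libraries were handled apart. With a replicate block the counts were 83 (AgNPs), 1 (DOC), 26 (COM against AgNPs) and 169 (COM against DOC), and the counts within a gene were 0 (AgNPs) and 4 (DOC). Within a gene, summed rows gave 4 for AgNPs and 50 for COM, and leaving out 1 library gave 0 to 3, 2 to 13 and 9 to 18 for AgNPs, DOC and COM.

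The rise in the share of linear counts (0.878, 1.65 and 2.66 percentage points for AgNPs, DOC and COM) was 2.04, 2.91 and 4.54 in FPKM and 0.469, 0.983 and 1.43 without the 10 most abundant rows. Without 1 library it ran from 0.694 to 1.11, 1.46 to 1.88 and 2.48 to 2.89. In genes with NM_ rows (0.261, 0.507 and 0.801) it was 0.802, 1.57 and 2.06 in FPKM, 0.162, 0.367 and 0.446 without the 10 most abundant rows and 0.154, 0.361 and 0.420 without PCBD2, with 0.218 to 0.318, 0.454 to 0.552 and 0.758 to 0.844 without 1 library.

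Of 2540 values that 127 called changes of named rows took under alternatives, 1960 kept the call and 580 kept the direction only. Depth limits rows below 1 CPM most: 3 counts over a group are 0.0454 CPM in BLANK and 0.0909 CPM in COM.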
